A study of Mus musculus with 13 samples.

Results

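Genes of 5 enzyme families known for xenobiotic metabolism were followed in colon tumors and adjacent mucosa. The families were cytochromes P450 (Cyp), carboxylesterases (Ces), UDP-glucuronosyltransferases (Ugt), glutathione S-transferases (Gst) and sulfotransferases (Sult). Members were the genes whose symbol begins with one of these family names and a class number or letter, and which reached 10 unique molecular identifiers (UMIs, the counted mRNA molecules) summed over 13 single-cell libraries. Of 32285 genes in the files, 186 carried such a symbol and 116 reached 10 UMIs: 56 Cyp, 23 Gst, 14 Ces, 12 Ugt and 11 Sult genes. Of the other 70 genes, 39 had 0 UMIs. Just inside the limit stood Cyp8b1, Cyp2c70 and Cyp2j8 with 10 UMIs and Sult1c1 and Cyp26c1 with 11, and just outside it Cyp2a5, Cyp24a1, Cyp2c67 and Cyp2c40 with 9 and Cyp4x1os with 8.

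The libraries came from 10 colon tumors (COT) and 3 samples of adjacent mucosa (Adj) of C57BL/6J mice. Every mouse had the genotype ApcMin/+; p16cis/cis, which joins an Apc mutation with p16 alleles that carry an inserted element drawing DNA methylation to that gene, and every mouse received the supplemented diet with added folate and cofactors. The 20-week mouse gave Adj 1 and COT 1 to 4, the 24-week mouse Adj 2 and COT 5 to 8, and the 23-week mouse Adj 3 and COT 9 and 10. Diet and genotype were thus the same in both groups, and only tumor against mucosa was compared. Mucosa was taken apart with EDTA and TrypLE and tumors with a Tumor Dissociation Kit, so tissue and dissociation cannot be told apart. Because the 10 tumors came from 3 mice, the p-values measure the spread between libraries.

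Many enzymes of these families make fat-soluble drugs, dietary compounds, steroids and bile acids easier to remove from the body. Members were taken by symbol alone and not by role. They therefore include enzymes with other roles, such as a demethylase of cholesterol synthesis and hydroxylases of sterols and steroids. The family counts and the rises below are thus not results on detoxification alone. Cytochromes P450 oxidize a compound and carboxylesterases split its ester bonds, after which glucuronosyltransferases, glutathione S-transferases and sulfotransferases attach a sugar acid, glutathione or a sulfate group. In the colon these enzymes are known mainly from the absorptive cells that face the gut content, and several families lie as tandem gene copies in the genome.

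After filters, 108500 cells in 41 clusters remained, of which 14914 mucosa and 17714 tumor cells were in clusters carrying epithelial markers. Epithelial cells were summed per library, which gave 60482829 to 79321404 UMIs in mucosa and 22744861 to 39494914 in tumors. Member genes were held out of the clustering, so that they did not define the clusters. Any pair of libraries shared 9 to 34 barcodes, at most 0.358% of the smaller library. Clusters 2, 6 and 24 held tumor cells almost alone (6781, 5224 and 1281 tumor cells against 24, 4 and 1 mucosa cells), and clusters 10, 12, 19 and 22 were mostly mucosa. Only clusters 15 (1787 tumor and 610 mucosa cells; leading genes Defb45, Robo2 and Trf) and 20 (986 and 735; absorptive-like) held at least 20 cells in all mucosa libraries and in all tumors. Adj 1 stood apart in its makeup, with 5.78% absorptive-like cells among epithelial cells against 18.6% in Adj 2 and 16.9% in Adj 3, and 2.17 to 13.8% in tumors.

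Promoters are shown for 2 pairs of genes of the same tandem cluster: Cyp2c55 and Cyp2c65, which fell most among the Cyp genes, and Gstm1 and Gstm5, which moved in opposite directions in the epithelial sums. The RefSeq promoter table (GRCm38.p6, the build of the files) held 118 windows for 99 of 116 members, each from 250 bases before to 50 after the start. Searched on both strands were 5 motifs: the xenobiotic response element core GCGTG, bound by the aryl hydrocarbon receptor, the antioxidant response element TGACNNNGC, an HNF4 motif CAAAGTCCA, a CDX motif TTTATTG and an HNF1 motif, given here without its letters. Capitals below mark the matches on either strand, which are CDX in Cyp2c55, HNF4 and then the antioxidant element in Cyp2c65, the response element core in Gstm1, and the core followed by an antioxidant element that overlaps another core in Gstm5. The windows are chr19:39006769-39007068 and chr19:39060756-39061055 (plus strand), chr3:108017769-108018068 (minus strand) and chr3:107895604-107895903 (plus strand).
Cyp2c55: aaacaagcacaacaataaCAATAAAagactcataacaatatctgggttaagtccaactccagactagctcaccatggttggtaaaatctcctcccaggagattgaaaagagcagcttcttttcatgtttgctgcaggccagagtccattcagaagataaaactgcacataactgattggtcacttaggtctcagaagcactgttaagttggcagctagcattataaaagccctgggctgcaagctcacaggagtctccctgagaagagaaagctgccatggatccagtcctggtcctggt
Cyp2c65: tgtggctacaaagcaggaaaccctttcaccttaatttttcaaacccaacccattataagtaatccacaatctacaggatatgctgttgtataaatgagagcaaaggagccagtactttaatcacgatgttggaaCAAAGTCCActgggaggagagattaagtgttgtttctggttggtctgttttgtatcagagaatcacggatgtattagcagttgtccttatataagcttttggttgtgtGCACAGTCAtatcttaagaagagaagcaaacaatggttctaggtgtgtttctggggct
Gstm1: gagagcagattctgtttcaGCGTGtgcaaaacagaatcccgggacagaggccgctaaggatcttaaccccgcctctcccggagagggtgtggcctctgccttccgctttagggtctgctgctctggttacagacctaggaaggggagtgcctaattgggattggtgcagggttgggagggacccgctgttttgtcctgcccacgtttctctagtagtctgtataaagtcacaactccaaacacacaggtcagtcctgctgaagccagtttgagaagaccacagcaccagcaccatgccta
Gstm5: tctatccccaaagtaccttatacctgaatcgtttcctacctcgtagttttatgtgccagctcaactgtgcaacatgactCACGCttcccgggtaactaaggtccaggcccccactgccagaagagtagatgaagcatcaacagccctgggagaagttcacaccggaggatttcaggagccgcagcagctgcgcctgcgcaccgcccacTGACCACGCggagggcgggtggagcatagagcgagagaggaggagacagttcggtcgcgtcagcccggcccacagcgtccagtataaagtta

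Among 53 windows of 43 members called lower in tumor epithelium, 14 (26.4%) held the response element core, against 32.4% of all 32851 promoters of the same length. The antioxidant element stood in 3 of these windows (5.66%) and in 12.4% of all promoters, the CDX motif in 3 (5.66%) and 4.60%, of which 2 are overlapping windows of Cyp4f40, the HNF4 motif in 2 (3.77%) and 0.475%, and the HNF1 motif in 0 and 0.0609%. Of 11 windows of members called higher, 3 held the core and 2 the antioxidant element. Among the 14 windows with the core, 2 overlapping ones of Gstm1 hold the same match, and 2 separate ones belong to Sult2b1. All of these hits are matches of letters in a window and not binding sites.

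In the epithelial sums, most members that could be tested were lower in tumors. Of 116 members, 79 passed the expression filter, and 51 of them fell (64.6%, where 30.1% of all 15468 tested genes fell), 13 rose (16.5%, where 33.9% of all genes rose), and 15 passed in neither direction. The median log2 fold change of the tested members was -1.30, against 0.04 over all tested genes. Changes were called by the edgeR quasi-likelihood test at an adjusted p under 0.05. In 32 members called lower every tumor lay below every mucosa library, a pattern that 12.8% of all tested genes had, and in 8 members called higher every tumor lay above them, as did 29.1% of all genes. The 8 were Cyp27a1, Gstcd, Cyp2b10, Cyp4f18, Cyp11a1, Cyp21a1, Cyp2u1 and Cyp26b1, and all but Cyp27a1 and Gstcd had means of 2.97 CPM or less in tumors. Cyp4f18, Cyp11a1, Cyp2u1 and Cyp26b1 had only 0.66%, 31.6%, 32.6% and 40.2% of their UMIs in epithelial clusters. Scaled to library size alone, without correction for composition, the median of all genes moved to 0.30, and 15 members rose and 48 fell. In these sums, a smaller share of the cells that carry a gene and less RNA per cell cannot be told apart. Read counts come from the 3' end and levels are not per gene length, so genes are compared only with themselves.

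**Figure D1:**
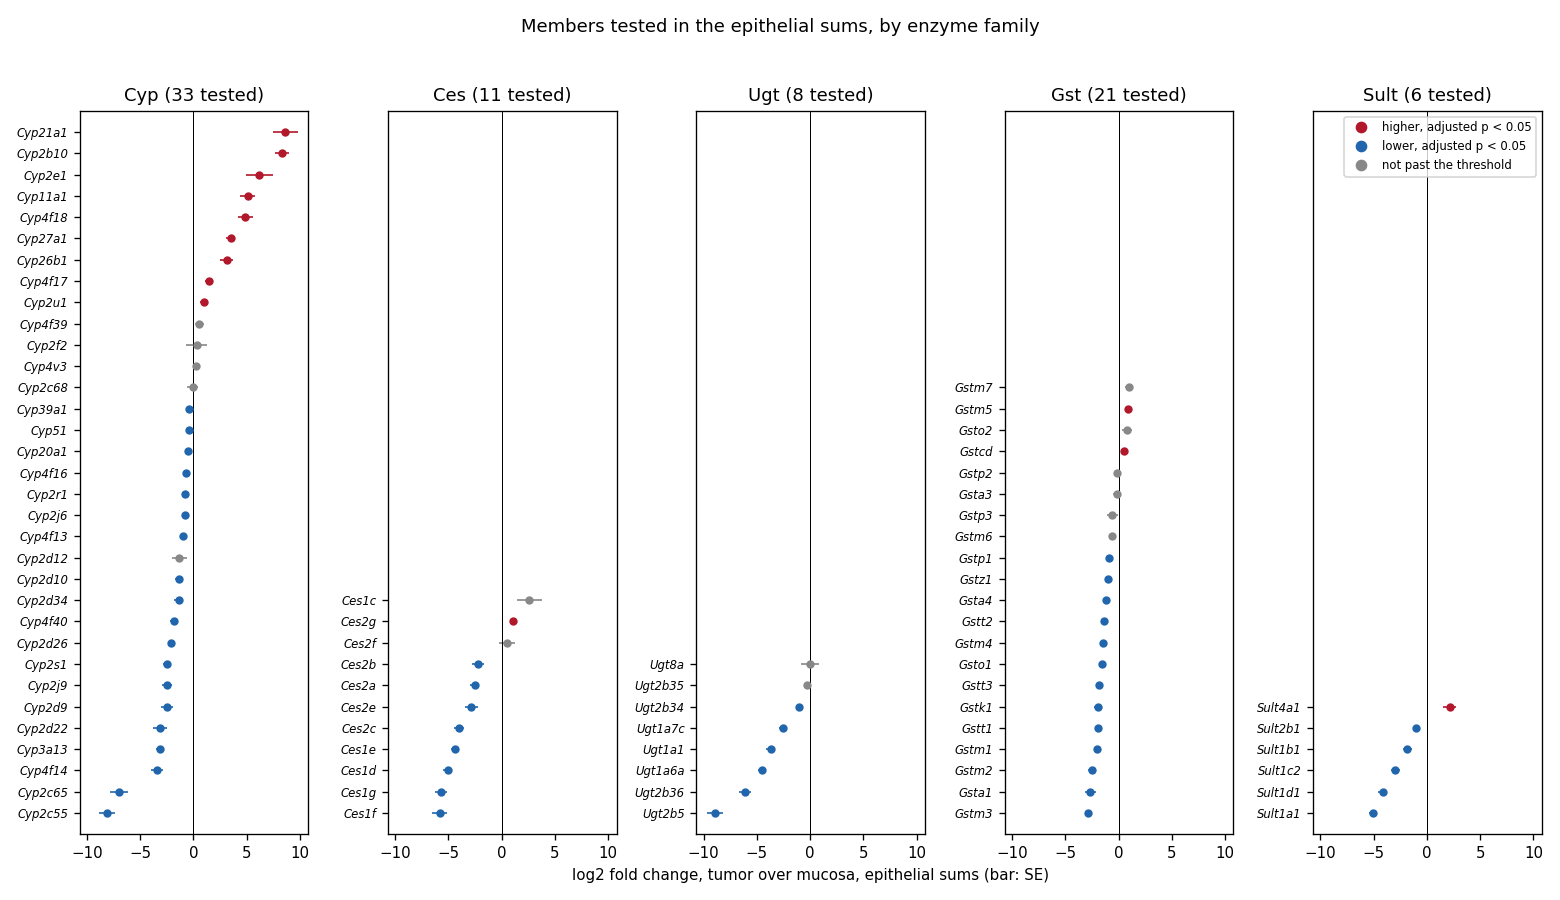
Log2 fold change of tumor over mucosa in the epithelial sums (x axis) for the 79 tested members, 1 panel per family, with bars of 1 SE and colors for calls. The points lie mostly left of 0, with 13 members called higher and 51 called lower.

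Among cytochromes P450, 19 of 33 tested members fell and 9 rose, with a median log2 fold change of -0.73. Cyp2c55, a colonic P450 of the arachidonic and linoleic acid oxidizing Cyp2c group, had 32.3, 353 and 358 CPM (counts per 1000000 UMIs) in Adj 1, 2 and 3. In tumors it had 0.0628 CPM at the lowest, 0.794 at the median and 3.78 at the highest (log2 fold change -8.11 ± 0.76, SE, adjusted p = 1.9e-06). Adj 1 was far below the other mucosa libraries and still above every tumor, and without the 24-week animal the change was -8.84. Its neighbor Cyp2c65 had 8.33, 75.9 and 58.2 CPM in mucosa and 0, 0.127 and 3.32 CPM at the lowest, median and highest in tumors (-6.98 ± 0.86, adjusted p = 1.5e-05), also without overlap. COT 6 was its highest tumor, and the change was -8.36 without COT 6 and -8.74 without the 24-week animal. The genes lie side by side (chr19:39007019-39042693 and chr19:39061015-39093944), while Cyp2c68, farther along the same cluster, had 3.83 to 4.71 CPM in mucosa and 1.15 to 9.32 CPM in tumors and did not pass (-0.05 ± 0.52, adjusted p = 0.93). Cyp2c66, between them, was under the filter, with 304 UMIs in mucosa and 4 in tumors. Cyp2c genes are close copies, and how reads common to several were divided is not known from the counts.

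Cyp4f14, a fatty acid and leukotriene omega-hydroxylase, had 15.4, 45.3 and 41.3 CPM in mucosa and 0.904, 2.81 and 12.5 CPM at the lowest, median and highest in tumors (-3.42 ± 0.56, adjusted p = 0.00016). The groups did not overlap, and COT 6 was the tumor nearest to mucosa for Cyp4f14, Cyp2c55 and Cyp2c65 alike. Cyp3a13, the main Cyp3a gene detected here, fell as well (36.8 ± 22.2 CPM in mucosa and 4.97 ± 1.93 in tumors, SD, n = 3 and 10, -3.14 ± 0.38); it is outside the rule for named genes and was chosen after its values were seen. Of the 6 Cyp2d genes tested, 5 fell, with the same doubt about reads common to close copies.

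Cyp51 and Cyp2j6 were among the P450 genes with the most UMIs. Cyp51, the lanosterol demethylase of cholesterol synthesis, had 173, 143 and 122 CPM in mucosa and 93.2, 129 and 152 CPM at the lowest, median and highest in tumors. The ranges overlapped, and the call of a small fall (-0.44 ± 0.14, adjusted p = 0.013) was lost in 6 alternatives: without Adj 1 (-0.31, adjusted p = 0.099), without the 24-week or the 20-week animal (adjusted p = 0.089 and 0.21), with tumors summed per animal (0.078), under 10% mitochondrial UMIs (0.051) and with library sizes alone (-0.18, adjusted p = 0.22). Cyp2j6, an arachidonic acid epoxygenase, had 35.9, 58.9 and 52.4 CPM in mucosa and 27.8, 32.7 and 43.7 CPM in tumors, with a fall of -0.80 ± 0.16 (adjusted p = 0.00072) and overlapping ranges. Without the 24-week animal its call was lost (-0.54, adjusted p = 0.060).

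Cyp27a1, the mitochondrial sterol 27-hydroxylase, rose. It had 0.959, 2.52 and 3.23 CPM in mucosa and 13.3, 30.8 and 45.4 CPM at the lowest, median and highest in tumors (3.52 ± 0.41, adjusted p = 1.0e-05). All 10 tumors lay above the 3 mucosa libraries, and the lowest was COT 10, the tumor with the largest absorptive-like share. It was the only P450 of at least 20 CPM in either group that rose.

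Carboxylesterases fell in 8 of 11 tested members, with 1 rise and a median log2 fold change of -2.84. Ces2c, of the Ces2 group that hydrolyzes esters in the gut wall, had 24.4, 135 and 118 CPM in mucosa and 2.28, 6.50 and 12.5 CPM at the lowest, median and highest in tumors (-4.00 ± 0.48, adjusted p = 1.2e-05). Every tumor was below Adj 1, the lowest mucosa library. Ces2e (-2.84 ± 0.57, adjusted p = 0.00067) and Ces2a (-2.55 ± 0.43, adjusted p = 0.00018) fell with overlap at Adj 1: 9 tumors were below it for Ces2e and 7 for Ces2a. Ces1g, a Ces1 esterase known for lipid hydrolysis, had 3.06, 25.8 and 37.1 CPM in mucosa and 0.0879, 0.493 and 1.22 CPM in tumors (-5.70 ± 0.57, adjusted p = 2.7e-06), a change that was -5.06 without the 23-week and -6.52 without the 20-week animal. Within the Ces1 tandem cluster on chromosome 8, 4 of 5 tested genes fell, and within the separate Ces2 cluster of that chromosome 4 of 6. The genes of each cluster are close copies too, so their single values carry this doubt. Ces2g, in the same Ces2 cluster, was the member that rose (1.93 to 2.87 CPM in mucosa and 2.86 to 9.34 in tumors, 1.06 ± 0.33, adjusted p = 0.012); it was named after its values were seen.

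Glucuronosyltransferases fell in 6 of 8 tested members, and the others, Ugt2b35 and Ugt8a, did not pass, with a median log2 fold change of -3.12. Ugt2b5, a Ugt2b enzyme of steroid and xenobiotic glucuronidation, had 3.31, 35.2 and 45.2 CPM in mucosa, whereas the median tumor had 0 and the highest 0.449 CPM (-8.91 ± 0.78, adjusted p = 1.1e-06). This rests on 6386 UMIs in mucosa and 19 in tumors, and the change was -10.50 without COT 5, -10.95 without the 24-week animal and -8.15 without the 23-week animal. Ugt2b34, in the same tandem cluster on chromosome 5, kept more of its level, with 67.6, 98.1 and 98.9 CPM in mucosa and 27.9, 50.8 and 71.5 CPM in tumors (-1.05 ± 0.20, adjusted p = 0.00053), and 1 tumor overlapped Adj 1. Ugt2b35 had 10.1, 7.93 and 10.6 CPM in mucosa and 3.47, 9.80 and 15.3 CPM in tumors and did not pass (-0.31 ± 0.30, adjusted p = 0.37). The members of the Ugt2b cluster thus ranged from -8.91 to -0.31. The Ugt1a genes share their 3' exons, so the split of reads among them is uncertain: 3 of 6 were tested and all 3 fell.

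Glutathione S-transferases fell in 13 of 21 tested members and rose in 2, with a median log2 fold change of -1.14. The 2 that rose were Gstm5 and Gstcd. Gstcd, counted here by its symbol alone and outside the rule for named genes, had means of 4.57 CPM in mucosa and 7.83 in tumors. Gsto1, the omega-class enzyme, had 224, 312 and 369 CPM in mucosa and 86.0, 113 and 176 CPM at the lowest, median and highest in tumors (-1.55 ± 0.21, adjusted p = 3.0e-05), with no overlap. Gstp1, the pi-class enzyme, fell by less (162, 148 and 197 CPM in mucosa and 58.8 to 171 in tumors, -0.85 ± 0.24, adjusted p = 0.0064), and 1 tumor reached the mucosa range. Gsta1, an alpha-class enzyme, had 24.97, 137 and 131 CPM in mucosa and 5.19, 16.8 and 42.5 CPM in tumors (-2.66 ± 0.53, adjusted p = 0.00063), with 3 tumors above Adj 1. All 3 tested Gstt genes fell.

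The 7 mu-class genes lie next to each other on chromosome 3 (chr3:107895821-108044894), in the order Gstm5, Gstm7, Gstm6, Gstm3, Gstm2, Gstm1 and Gstm4. In the epithelial sums their changes followed no single direction. Gstm1 had 173, 178 and 213 CPM in mucosa and 38.9, 56.1 and 70.9 CPM at the lowest, median and highest in tumors (-2.06 ± 0.18, adjusted p = 9.3e-07). Gstm2 had 60.8, 62.9 and 64.8 CPM in mucosa and 6.55, 13.1 and 24.6 in tumors (-2.52 ± 0.31, adjusted p = 1.6e-05), and neither gene overlapped between groups. Gstm5, at the other end, had 93.5, 73.0 and 78.3 CPM in mucosa and 82.8, 189 and 253 CPM in tumors (0.90 ± 0.25, adjusted p = 0.0065). Of the 10 tumors, 9 were above all mucosa libraries for Gstm5, the exception being COT 10. Gstm3 (-2.89) and Gstm4 (-1.48) fell, while Gstm7 (0.98, adjusted p = 0.054) and Gstm6 (-0.60, adjusted p = 0.089) did not pass. Gstm genes are close copies, and how reads common to 2 of them were divided is not known from the counts. Without the 24-week animal the rise of Gstm5 did not pass (0.75, adjusted p = 0.12).

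Sulfotransferases fell in 5 of 6 tested members, with a median log2 fold change of -2.42. Sult1a1, a phenol sulfotransferase, had 101, 144 and 234 CPM in mucosa and 1.72, 5.50 and 10.8 CPM at the lowest, median and highest in tumors (-5.05 ± 0.41, adjusted p = 5.9e-07). Sult1d1, a catecholamine sulfotransferase of rodents, had 89.5, 256 and 237 CPM in mucosa and 3.53, 15.3 and 21.7 CPM in tumors (-4.14 ± 0.43, adjusted p = 4.0e-06). Neither overlapped between the groups, nor did Sult1c2, with 21.1, 27.3 and 18.9 CPM in mucosa and 0.967, 2.85 and 6.35 in tumors (-2.99 ± 0.42, adjusted p = 4.3e-05). Sult1b1, which sulfates thyroid hormones and phenols, had 54.5, 172 and 135 CPM in mucosa and 14.2, 42.1 and 79.6 in tumors (-1.84 ± 0.43, adjusted p = 0.0021), with 2 tumors above Adj 1. Without the 24-week animal its call was lost (-1.37, adjusted p = 0.084). The member that rose, Sult4a1, rested on 86 UMIs in tumors and 12 in mucosa.

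**Figure D2:**
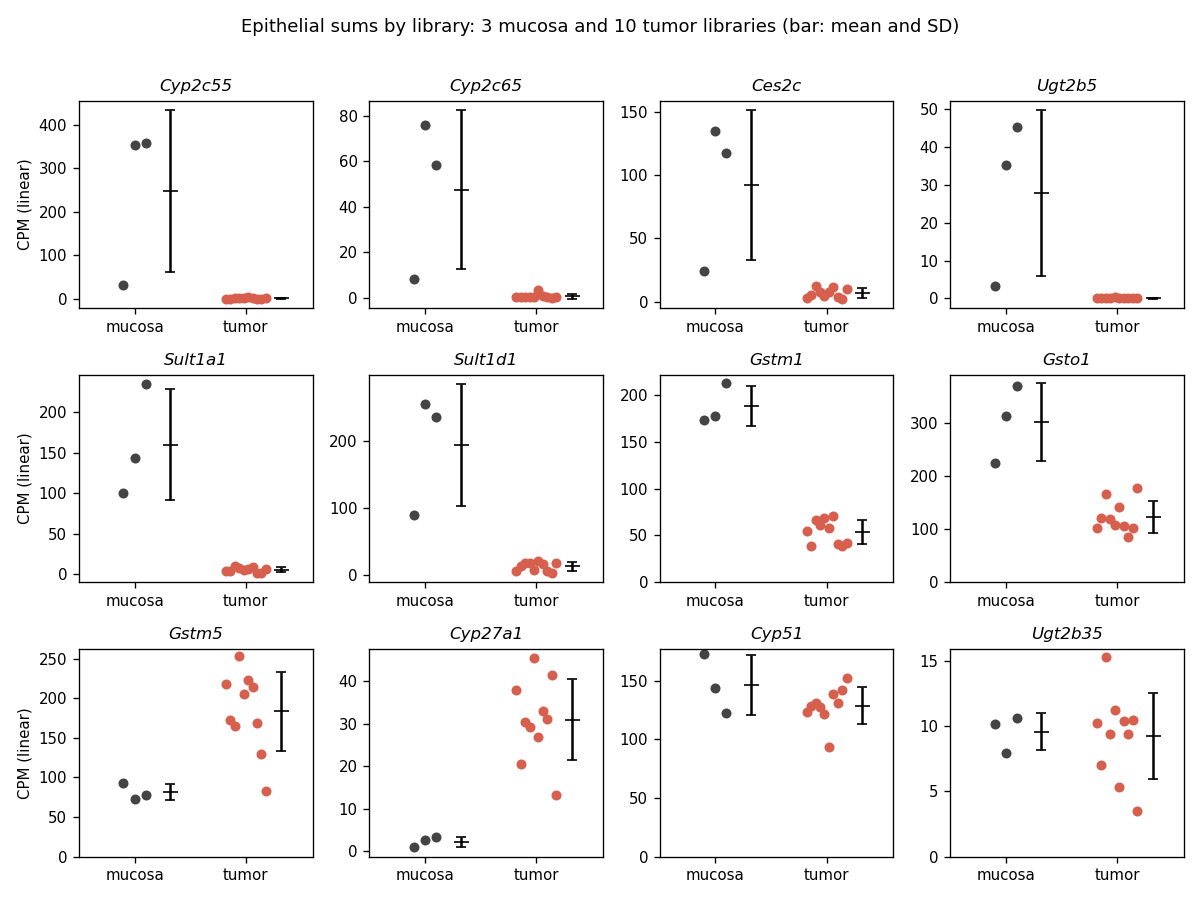
CPM on a linear axis in the epithelial sum of each of 3 mucosa (black) and 10 tumor (red) libraries for 12 members, with bars of the mean and SD. Adj 1 is the leftmost mucosa point: it is low for Cyp2c55 (32.3), Ces2c (24.4) and Ugt2b5 (3.31), while Gstm5 and Cyp27a1 are higher in tumors and Cyp51 and Ugt2b35 overlap.

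Within mucosa the members were highest in different epithelial clusters. Of the 79 members tested in the sums, 18 had their highest mean CPM in cluster 22, the absorptive-like cluster led by Slc10a2 and Tmigd1. There were 16 in cluster 19, an unnamed mucosa cluster led by Hao2, Apol10a and Hsd3b3, 11 in the enteroendocrine-like cluster 29, 9 in cluster 10 and 7 in cluster 12. The same count was not made over all genes. Cyp2c55 reached 2190 CPM in mucosa cluster 22, 465 in cluster 20 and 413 in cluster 19, against 3.00 to 5.91 in the other mucosa clusters. Mucosa immune cells had 9.83 CPM (3.97% of its epithelial level). They held fewer UMIs per cell (in Adj 2, 3913615 in 1978 immune cells and 73885044 in 7111 epithelial cells), so their CPM is no scale for epithelial background. Free RNA was not estimated, so whether the lowest levels are expression is not known. Ces2c (847 CPM) and Ces2a (410 CPM) were also highest in cluster 22. Sult1b1 was highest in cluster 20 (757 CPM), and Ugt2b5 (75.1 CPM) and Ugt2b34 (181 CPM) in cluster 19. Sult1a1 and Gstm1 had another distribution, with 306 and 307 CPM in cluster 10 and 17.1 and 12.03 CPM in cluster 22. Clusters 22, 19 and 10 were nearly absent from tumors, with 5, 15 and 53 cells.

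In the tumor clusters 2, 6 and 24, which carry the bulk of the tumor epithelium, 19 of 28 named members had under 10 CPM in each. Cyp2c55 had 0.03, 0.34 and 0.14 CPM there, Ces2c 0.49, 0.17 and 0.07 CPM, and Sult1b1 1.43, 0.62 and 0.41 CPM. The other 9 were Cyp51, Cyp2j6, Cyp27a1, Gsto1, Gstp1, Gstm1, Gstm5, Ugt2b34 and Ugt2b35. Many of the 28 were named for large falls in sums that these clusters dominate, so the count of 19 was in part set by that choice. It was not made over all tested members or all genes. Gsto1 had 105, 76.9 and 49.6 CPM in clusters 2, 6 and 24, Gstp1 95.3, 112 and 107 CPM, and Cyp51 116, 131 and 101 CPM. Cyp27a1 had 22.6, 51.0 and 56.9 CPM in clusters 2, 6 and 24, against at most 7.39 in any mucosa cluster, and Gstm5 had 104, 219 and 574 CPM, against at most 110 in any mucosa cluster. Gstm7 had 119 CPM in cluster 24. Of the 79 members tested in the sums, 24 had their highest tumor level in cluster 20, 14 in cluster 21, which reached 20 cells in 3 tumors, and 10 in cluster 24. These counts, too, were not made over all genes.

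**Figure D3:**
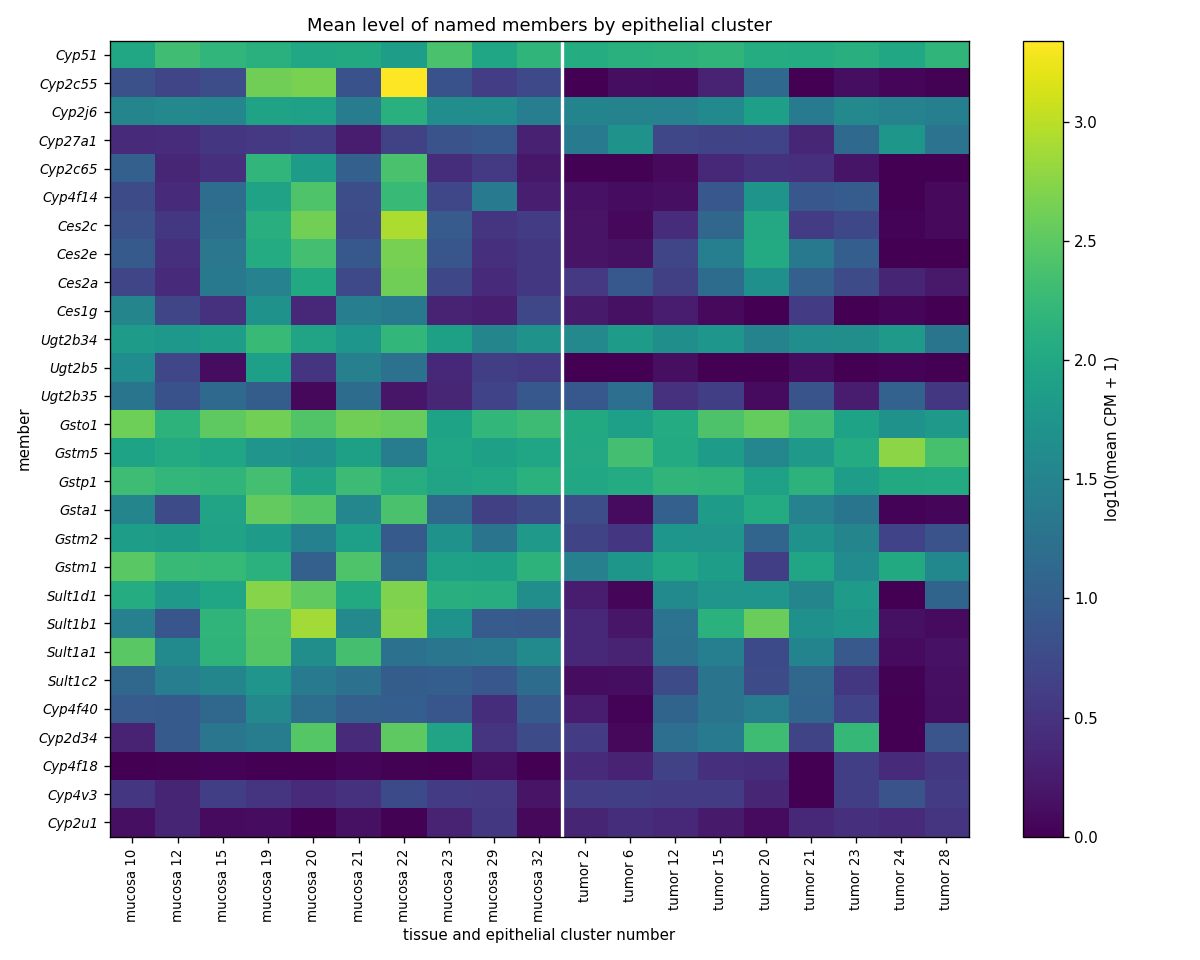
Mean CPM of named members (rows, log10 of CPM + 1 in color) in each epithelial cluster, mucosa left and tumor right of the white line. Read along a row: Cyp2c55 is brightest in mucosa cluster 22 and dark in tumor clusters 2, 6 and 24, where Gstm5 reaches 574 CPM in cluster 24.

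Tumor and mucosa were then compared within the clusters that both hold, as an alternative chosen after the clusters were seen. In cluster 20, 39 members were tested, 25 fell (17.9% of all 7694 tested genes fell) and 1 rose (17.0% rose), with a median log2 fold change of -1.18 against 0.04 over all genes. Cyp2c55 had 634, 304 and 456 CPM in Adj 1, 2 and 3 and 0, 6.70 and 50.9 CPM at the lowest, median and highest in tumors (-5.40 ± 0.78, adjusted p = 0.00031). Here Adj 1 was the highest mucosa library and not the lowest. Without the 24-week animal the changes in this cluster were -6.60 for Cyp2c55, -6.71 for Cyp2c65 and -4.12 for Sult1a1. Cyp2c65 (-5.36 ± 0.48), Sult1a1 (-3.35 ± 0.40), Sult1d1 (-2.80 ± 0.41), Sult1c2 (-2.60 ± 0.41), Cyp4f14 (-2.53 ± 0.51) and Ces2c (-2.26 ± 0.37) fell too, though the call of Cyp4f14 was lost without the 20-week animal (-2.40, adjusted p = 0.060). For Ces2c the 3 mucosa libraries had 454, 465 and 368 CPM and the tumors 34.2, 98.4 and 193 CPM at the lowest, median and highest. All 5 sulfotransferases tested in cluster 20 fell, with Sult1b1 at -1.23 ± 0.19 (adjusted p = 0.00014).

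Other members did not follow. Gsto1, lower in the epithelial sums, had 262, 266 and 295 CPM in mucosa cluster 20 and 258, 350 and 536 CPM in tumors and was not called (0.14 ± 0.18, adjusted p = 0.59). Cyp51 (-0.02 ± 0.14, adjusted p = 0.92) and Cyp2j6 (-0.32 ± 0.21, adjusted p = 0.26) were not called either. Gstm5, higher in the sums, was lower in cluster 20, with 43.0, 47.1 and 52.6 CPM in mucosa and 18.03, 31.6 and 51.4 CPM in tumors (-0.68 ± 0.22, adjusted p = 0.025), and 7 tumors were below all mucosa libraries. That call was lost without Adj 2 (adjusted p = 0.079), Adj 3 (adjusted p = 0.11) or any one animal (0.056 to 0.13) and with library sizes alone (-0.44, adjusted p = 0.12). Cyp27a1 was under the filter in cluster 20 (0.956, 2.80 and 5.23 CPM in mucosa and at most 5.57 in tumors).

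In cluster 15, 51 members were tested, 12 fell (6.25% of all 10701 tested genes fell) and 0 rose by edgeR or DESeq2 (6.94% of all genes rose by edgeR, and 1 at an unadjusted p under 0.05), with a median log2 fold change of -0.49 against 0.02 over all genes. The number that fell was 1 without the 24-week animal, 3 without the 23-week animal, 3 without Adj 3 and 6 without Adj 2. It was 18 with the animal as a block and 10 with tumors summed per animal. Cyp2c55 was called (-2.60 ± 0.71, adjusted p = 0.026), but had only 0 to 8.48 CPM in the mucosa cells of cluster 15. Free RNA was not estimated, so whether this low level is expression or background is not known, and no change in expression is read from it. Sult1a1 fell from 92.0 to 177 CPM in mucosa to 11.6, 19.2 and 50.8 CPM at the lowest, median and highest in tumors (-2.51 ± 0.40, adjusted p = 0.0027), without overlap. Of the 7 Gstm genes, 6 fell here. Gstm1 had 116 to 236 CPM in mucosa and 37.2, 70.2 and 114 CPM in tumors (-1.24 ± 0.28, adjusted p = 0.012), Gstm7 12.3 to 20.8 and 1.92, 6.20 and 8.57 CPM (-1.23 ± 0.29, adjusted p = 0.013), and neither overlapped. Gstm5 was the member not called (-0.42 ± 0.19, adjusted p = 0.14).

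The difference between the changes in both clusters was tested directly, with the library as a block. Of 54 members tested, 16 had a less negative or more positive change in cluster 15 than in cluster 20 (8.84% of all 10224 genes) and 0 the opposite by edgeR (6.34%, and 2 at an unadjusted p under 0.05), and the median difference was 0.68 on the log2 scale. Without Adj 1 the first number was 10 and without Adj 3 it was 8. The largest called differences were those of Cyp2c65 (3.78 ± 0.65, adjusted p = 0.00032), Sult1d1 (1.999 ± 0.39, adjusted p = 0.0050), Sult2b1 (1.62 ± 0.28, adjusted p = 0.00063) and Sult1c2 (1.59 ± 0.45, adjusted p = 0.023). Cyp2c65 was under the filter in cluster 15 and had 0 to 2.97 CPM in its mucosa cells. Free RNA was not estimated, so its difference rests on a level that cannot be told from background. For Cyp2c55, likewise low in the mucosa cells of cluster 15, the difference was 2.41 ± 0.79 and did not pass (adjusted p = 0.058), and for Sult1a1 it was 0.83 ± 0.37 (adjusted p = 0.15).

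**Figure D4:**
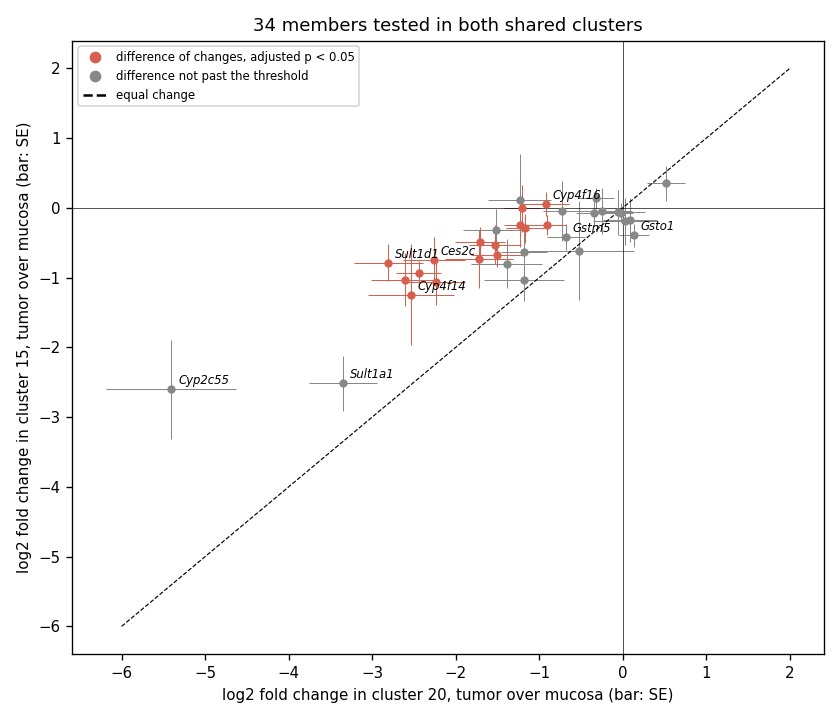
Log2 fold change of tumor over mucosa in cluster 20 (x axis) and in cluster 15 (y axis) for the 34 members tested in both, with bars of 1 SE, and the line of equal change dashed. Red marks the 15 members whose difference passed, and 27 of the 34 lie above the line.

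By class, absorptive-like cells repeated the fall: 25 of 42 tested members fell (19.0% of all 8359 genes) and 4 rose (17.9%), with a median of -0.88. This class was mostly cluster 22 in mucosa and cluster 20 in tumors, so that the values compare different clusters as well as tissues. In the remaining epithelial clusters, which differ between the tissues likewise, 45 of 75 tested members fell (30.6% of all 15090 genes) and 14 rose (34.8%), with a median of -0.89. In goblet-like cells, the mucus-secreting cells, tumors had 20 to 83 cells per library in COT 1 to 7, and the other 3 tumors were left out for too few cells. Both tumors of the 23-week mouse, COT 9 and COT 10, were among those left out. This fit thus set tumors of 2 mice against mucosa of 3. Of 23 members tested there, 1 rose (4.44% of all 5924 genes) and 1 fell (2.28%), with a median of -0.15. With the animal as a block 1 rose and 0 fell.

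Cyp4f40 and Cyp2d34 passed in the direction opposite to the sums in one class. Cyp4f40, of the Cyp4f fatty acid hydroxylases, fell in the sums (7.21, 16.4 and 14.6 CPM in mucosa and 1.76, 4.21 and 7.93 in tumors, -1.80 ± 0.36, adjusted p = 0.00075). In absorptive-like cells it rose (9.05 to 13.8 CPM in mucosa and 12.6, 24.6 and 36.7 CPM in tumors, 0.86 ± 0.23, adjusted p = 0.0064), with 9 tumors above all mucosa libraries. Within cluster 20 alone it had 16.2, 14.0 and 14.7 CPM in mucosa and 13.02, 24.6 and 36.7 in tumors and did not pass (0.52 ± 0.22, adjusted p = 0.081).

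Cyp2d34, one of the closely similar Cyp2d genes, fell in the sums (26.9, 41.8 and 37.3 CPM in mucosa and 6.93, 15.5 and 28.1 in tumors, -1.39 ± 0.39, adjusted p = 0.0073) and in cluster 20 (-0.73 ± 0.22, adjusted p = 0.016). The call in the sums was lost without the 24-week animal (-1.12, adjusted p = 0.098) and that in cluster 20 without Adj 1 (-0.66, adjusted p = 0.070), without the 24-week or the 23-week animal (0.066 and 0.076) and with library sizes alone (-0.50, adjusted p = 0.086). In absorptive-like cells its fall (-0.74, adjusted p = 0.045) turned to 0.07 with doublets kept and to 0.02 with enzyme genes left in the clustering (adjusted p = 0.87 and 0.96). In goblet-like cells it had 73.8 to 104 CPM in the 3 mucosa libraries. The 7 tumors, none of them of the 23-week mouse, had 114, 155 and 248 CPM at the lowest, median and highest. All 7 lay above mucosa (1.07 ± 0.25, adjusted p = 0.016). This call was lost without any one of the 3 mucosa libraries. The change in goblet-like cells minus that in absorptive-like cells was 1.42 ± 0.32 (adjusted p = 0.0068), and 1.48 ± 0.23 against cluster 20 alone (adjusted p = 0.00039). Over all 43 members tested for this difference, 6 were positive (6.96% of all 8565 genes) and 2 negative (5.67%). Sult1d1 (2.04 ± 0.33), Cyp3a13 (2.85 ± 0.52) and Cyp2s1 (2.63 ± 0.60) were positive with either form of the absorptive cells. Of the 6 positive members, 3 were under the filter in goblet-like cells themselves and entered through the absorptive cells: Cyp3a13, Cyp2s1 and Ces2a had 114, 30 and 62 UMIs in goblet-like cells of mucosa and 33, 16 and 15 in those of tumors, so their differences say little of goblet-like cells. The negative members Cyp51 (-0.97 ± 0.28) and Cyp20a1 (-2.15 ± 0.58) did not pass against cluster 20 alone.

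Some members were carried mostly by other cells. Cyp11a1, named after its values were seen, had 68.3% of its UMIs in immune clusters. It reached 693 CPM in the pooled mast cells of tumors, against a mean of 0.88 CPM in tumor epithelium. Cyp4f18, a leukotriene B4 hydroxylase, had 0.66% of its UMIs in epithelial clusters, and reached 359 CPM in the pooled neutrophils of tumors. It was called higher in the epithelial sums (0.0271 to 0.0504 CPM in mucosa and 0.444 to 2.88 in tumors, 4.87 ± 0.71, adjusted p = 6.0e-05, and 3.71 with doublets kept and 4.24 at resolution 0.5). The neutrophil gene S100a8 had 6.30 to 12.8 CPM in mucosa epithelium and 54.0 to 346 in tumor epithelium. Of the 10 immune genes listed with it, 7 rose and 2 fell, and their summed level was 2089 to 3421 CPM in mucosa and 480 to 2353 in tumors. The source of Cyp4f18 RNA in epithelial clusters was not tested. Cyp4v3 and Cyp2u1 had 24.7% and 32.6% of their UMIs in epithelial clusters, and 0.29 ± 0.23 (adjusted p = 0.27) and 0.96 ± 0.34 (adjusted p = 0.022) as their changes. The call of Cyp2u1 was lost without any one of the mucosa libraries (adjusted p = 0.063, 0.083 and 0.053 without Adj 1, 2 and 3) or of the 3 animals (0.073 to 0.092).

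Cyp21a1, Cyp2b10 and Cyp2e1, named after their values were seen, had almost no UMI in mucosa. Cyp21a1, the steroid 21-hydroxylase, had 379 UMIs in tumor epithelium and 0 in mucosa, which is at least 93.5-fold higher against a floor of 3 counts over the mucosa group, and 12.2 CPM in tumor cluster 20. A near-identical copy of Cyp21a1 exists in the genome, so its reads are uncertain. Cyp2b10, a phenobarbital-inducible P450 of liver, had 874 UMIs in tumors and 1 in mucosa (ratio 647, 95% interval of counting error 116 to 25584), and 7.76 CPM in cluster 24. Cyp2e1, the ethanol-oxidizing P450, had 73 UMIs and 0 (at least 18.01-fold higher). All 3 lay at 4.30 CPM or less in each tumor sum.

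The regulators, redox partners, cofactor enzymes and transporters around these families were followed in a list of 49 genes, 48 of them tested in the epithelial sums. Of these, 28 fell and 10 rose, beside the 30.1% and 33.9% of all genes above, with a median of -0.73. Receptors and regulators fell in 10 of 15 and rose in 2, other oxidation enzymes and electron donors fell in 7 of 12 and rose in 2, cofactor supply fell in 8 of 12 and rose in 2, and transporters fell in 3 of 9 and rose in 4. Ahr, the aryl hydrocarbon receptor that induces several P450 genes, rose from 6.97 to 9.76 CPM in mucosa to 18.3, 26.3 and 32.1 CPM at the lowest, median and highest in tumors (1.39 ± 0.14, adjusted p = 3.7e-06), and all tumors were above mucosa. Nr1i2, the pregnane X receptor, fell from 9.28 to 14.0 CPM in mucosa to 4.39, 6.55 and 8.88 CPM (-1.18 ± 0.22, adjusted p = 0.00034), also without overlap. Nfe2l2, the regulator of antioxidant genes, was lower (-0.51 ± 0.12, adjusted p = 0.0025), a call that was lost with library sizes alone (-0.25, adjusted p = 0.12). Por, the reductase that feeds electrons to microsomal P450, did not pass (28.9 to 47.1 CPM in mucosa and 35.2 to 69.9 in tumors, 0.10 ± 0.18, adjusted p = 0.64).

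Abcc2, a conjugate export pump, was 0.0812 to 0.202 CPM in mucosa and 2.76, 17.2 and 42.8 CPM at the lowest, median and highest in tumors (7.06 ± 0.93, adjusted p = 2.6e-05), and its change was 6.47 without the 24-week and 7.65 without the 23-week animal. Slc7a11, the cystine importer for glutathione synthesis (3.75 ± 0.32), and Fmo2, a flavin monooxygenase (3.50 ± 0.88), rose as well. Aldh1a1, a retinal dehydrogenase (-5.93 ± 0.58, adjusted p = 2.4e-06), the drug efflux pump gene Abcb1a (-3.51 ± 0.42, adjusted p = 1.3e-05) and Aldh1b1, a mitochondrial aldehyde dehydrogenase (-3.40 ± 0.22, adjusted p = 1.2e-07), fell most. Within cluster 20, Aldh1a1 (-4.82 ± 0.60, -6.23 without COT 7, -7.02 without the 24-week and -3.81 without the 20-week animal) and Aldh1b1 (-1.99 ± 0.23) fell, while Nr1i2 (0.14 ± 0.25, adjusted p = 0.69) did not pass and Ahr was under the filter. By role, receptors and regulators there fell in 4 of 12 (median -0.10), where 17.9% of all genes fell and 17.0% rose, and other oxidation enzymes and electron donors fell in 4 of 8 (-0.85). Cofactor supply fell in 4 of 12 and rose in 3 (-0.06), with a summed level of 802 to 1024 CPM in mucosa and 1102 to 1622 CPM in tumors, and transporters fell in 3 of 6 and rose in 2 (-1.27).

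**Figure D5:**
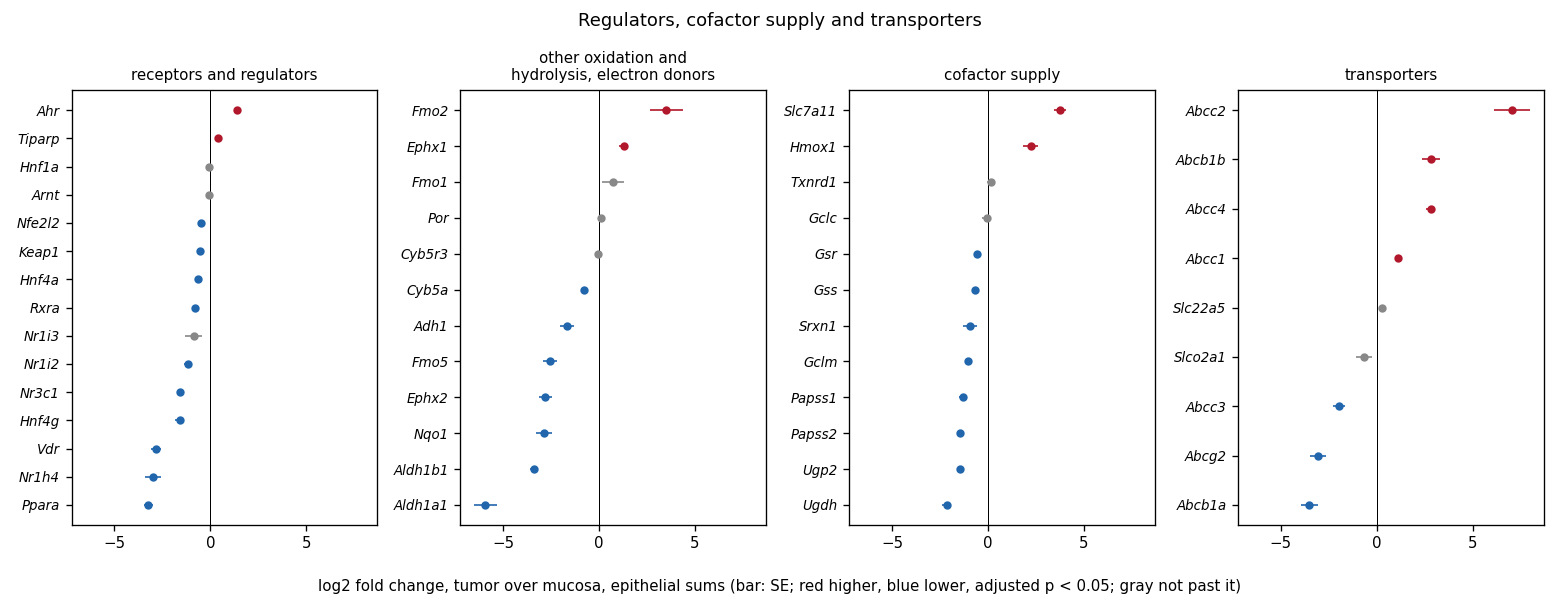
Log2 fold change of tumor over mucosa in the epithelial sums for the 48 tested pathway genes in 4 panels by role, with bars of 1 SE and red, blue and gray for higher, lower and not past the threshold. Regulators lie mostly left of 0 with Ahr at 1.39 as an exception, and transporters lie on both sides.

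Genes of the dissociation and stress response moved with the groups. All 15 genes of that list were tested, 14 rose in the sums, where 33.9% of all genes rose, and Ier2 did not pass. Their summed level was 967 to 1122 CPM in mucosa and 2102 to 5214 CPM in tumors. In cluster 20, 7 of the 15 rose (17.0% of all genes), and in cluster 15, 8 of the 15 (6.94%). Of 10 immune genes, 7 rose and 2 fell in the sums (33.9% and 30.1% of all genes), with summed levels of 2089 to 3421 CPM in mucosa and 480 to 2353 in tumors, led by Cd74, and of 4 erythroid genes 1, Hba-a2, fell. Within cluster 20, where 17.9% of all genes fell, all 4 erythroid genes fell (median -4.43, summed level 44.3 to 6368 CPM in mucosa and 1.18 to 804 in tumors), as they did within cluster 15 (6.25% of all genes, median -3.40, 29.5 to 207 and 0.319 to 32.5 CPM). Of the immune genes, 3 of 7 tested rose and 1 fell in cluster 20, and 4 of 9 rose and 1 fell in cluster 15. Their part in the changes of the members was not tested.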

How the data were processed

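Single-cell 3' libraries (10x Genomics Chromium) of 10 colon tumors and 3 adjacent mucosa samples of 3 mice were analysed. The authors aligned and counted the reads with Cell Ranger (6.0.0 in the submitters' processing notes and another version in the paper) on mm10, and deposited UMI counts per gene and barcode, unnormalized. Groups, animals and ages were taken from the labels, while the labelled sex differed among libraries of 1 animal code and was not used. All 13 libraries, with the 7 labelled female, had Y-linked Ddx3y (29.5 to 50.0 CPM) above Xist (at most 0.125 CPM). The female labels thus go against the counts.

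Of 137591 barcodes, 7797 under 200 genes, 10902 with 25% or more mitochondrial UMIs and 10392 with the highest doublet scores (0.8% per 1000 barcodes) were left out. Libraries held 57221300 to 116133079 UMIs. Cells were clustered on 2000 variable genes without the enzyme genes (30 principal components, 20 neighbors, Leiden resolution 1, leidenalg 0.10.2), and clusters were called epithelial, immune or "-like" from marker lists. CPM are counts per 1000000 UMIs of the summed cells. Sums per library with at least 20 cells were tested with edgeR 4.0.16 (R 4.3.3: filterByExpr, TMM, quasi-likelihood F test, Benjamini-Hochberg over all genes tested, threshold 0.05), after the script was tested on simulated data, and standard errors above 10 on the log2 scale in the interaction fits were left out. DESeq2 1.42.0, other scalings, filters, cell filters and clusterings, and leaving out libraries or animals were alternatives. Floors are 3 counts and intervals (95%, exact) cover counting error only.

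Named genes were, per family, the 3 with the most epithelial UMIs and, at 20 CPM or more and past the threshold, the 3 largest rises and falls, together with members passing in the opposite direction in a class, the 3 with the largest share outside epithelium among members of at least 1000 UMIs, and the 3 largest rises and falls of the pathway list with Ahr, Nr1i2, Nfe2l2 and Por. The members and lists were chosen with earlier results of these data known. Mucosa and tumors of 1 animal code come from the same mouse. Their deviations from the group means, over genes, correlated with r = 0.228, 0.195 and 0.0924 at 20, 24 and 23 weeks, against at most -0.0564, -0.00248 and 0.156 with the mucosa of another mouse, so that the 23-week pair did not stand out. The deviations of the 3 mucosa libraries cancel out for each gene, so a positive r with one of them lowers that with the others. This contrast is therefore no independent check of the pairing. The animal as a replicate block was an alternative, and with it 13 members rose and 51 fell in the epithelial sums.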

Additional observations from a re-analysis of the deposited data

Results flagged for a closer look

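In the epithelial sums, 38 members and pathway genes were examined for a tumor lying apart from the other 9, and 6 such values were found. The nominal rate is 1 in 20 groups for independent, normally spread values. CPM near 0 and several genes of 1 library need not meet this. Of the 6 values, 5 came from COT 6. It had 3.32 CPM of Cyp2c65 (the other tumors 0 to 0.474), 12.5 CPM of Cyp4f14 (0.904 to 5.69), 25.3 CPM of Ces2e (1.69 to 13.7) and 3.23 CPM of Aldh1a1 (0.288 to 1.22), which were the highest of their groups, and 93.2 CPM of Cyp51 (121 to 152), which was the lowest. COT 5 had 0.449 CPM of Ugt2b5, where the other tumors had 0 to 0.128. Of the absorptive-like cells, 55 of 59 in COT 6 and 58 of 59 in COT 5 were in cluster 20 and the rest in cluster 22. In the other tumors all were in cluster 20. In mucosa, Cyp2c65 and Ces2e were highest in cluster 22, Cyp4f14 in cluster 20 and Ugt2b5 in cluster 19. The part of this makeup in the values was not tested.

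The change from mucosa to tumor differed between goblet-like and absorptive-like cells by the interaction test of edgeR for 8 of 43 members tested. Of these, 6 were positive, as were 6.96% of all 8565 genes, and 2 negative, as were 5.67%. No tumor of the 23-week mouse entered this test. Goblet-like minus absorptive-like, the log2 differences were 2.85 ± 0.52 for Cyp3a13 (SE, adjusted p = 0.00154), 2.63 ± 0.60 for Cyp2s1 (0.00601), 2.57 ± 0.66 for Ces2a (0.0149), 2.04 ± 0.33 for Sult1d1 (0.000551), 1.49 ± 0.31 for Ugt2b34 (0.00330), 1.42 ± 0.32 for Cyp2d34 (0.00681), -0.97 ± 0.28 for Cyp51 (0.0270) and -2.15 ± 0.58 for Cyp20a1 (0.0191). Cyp3a13, Cyp2s1 and Ces2a were under the filter in goblet-like cells (114, 30 and 62 UMIs in mucosa and 33, 16 and 15 in tumors) and entered through the absorptive-like cells, so these 3 differences say little of goblet-like cells. With cluster 20 in place of all absorptive-like cells, Cyp2d34, Sult1d1, Cyp2s1 and Cyp3a13 passed again, Cyp2d10 (1.29), Gstm5 (1.01) and Cyp2d9 (2.30, under the goblet filter too) passed in addition, and Ces2a (1.12), Ugt2b34 (0.87), Cyp51 (-0.77) and Cyp20a1 (-1.53) did not.

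The change also differed between the 2 shared clusters for 16 of 54 members tested, all with a less negative or more positive change in cluster 15. Of all 10224 genes, 8.84% had such a difference. Cluster 15 minus cluster 20, the differences on the log2 scale were 3.78 for Cyp2c65, 1.999 for Sult1d1, 1.62 for Sult2b1, 1.59 for Sult1c2, 1.52 for Ces2c, 1.24 for Cyp2d10, 1.23 for Ugt2b34 and 1.20 for Cyp3a13. Cyp2c65 was under the filter in cluster 15. The differences were 1.15 for Gsta1, 1.14 for Sult1b1, 1.13 for Gstk1, 1.06 for Cyp4f14, 0.93 for Cyp4f16, 0.88 for Gstm2, 0.85 for Gstt3 and 0.72 for Gstt2. Adjusted p ran from 0.000323 for Cyp2c65 to 0.0396 for Cyp3a13 by edgeR.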

How the results depend on the processing

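In the epithelial sums, the counts of members that fell and rose stayed within 1.5 times their values in every alternative, with 48 to 52 falls and 11 to 14 rises when 1 library was left out. Members and lists differed more within classes. In absorptive-like cells 2 members rose without the 23-week or the 20-week animal, and 41 fell with a filter of 10 UMIs in place of filterByExpr, where leaving out 1 library gave 3 to 6 rises and 20 to 29 falls. Resolution 0.5 gave no absorptive-like value. In goblet-like cells, the rises were 2 with DESeq2, with tumors summed per animal and at resolution 0.5, and 0 without any one animal and under 10% mitochondrial UMIs, and 0 to 2 without 1 library. Their falls were 3 with library sizes alone, 4 with the filter of 10 UMIs, 2 with doublets kept and at resolution 0.5, and 0 with the animal as a replicate block, with tumors summed per animal, without any one animal, and under 10% mitochondrial UMIs, and 0 to 1 without 1 library. For goblet-like cells, leaving out the 23-week animal was the same fit as leaving out Adj 3. In the remaining clusters 7 members rose without the 24-week and 8 without the 20-week animal.

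In cluster 15, falls numbered 1 and 3 without the 24-week and the 23-week animal, and 3 to 15 without 1 library. In cluster 20, rises numbered 2 with library sizes alone and with the filter of 10 UMIs, and 1 to 2 without 1 library. The difference of goblet-like from absorptive-like cells had 0 negative members with cluster 20 in place of the class and, without 1 mucosa library, 5 to 8 positive and 0 to 2 negative, and the difference of cluster 15 from cluster 20 had 8 to 19 positive and 0 to 1 negative members without 1 library. The block changed no other count by over 1.5 times. Of the called members, Cyp2d34 reversed in absorptive-like cells (0.07 with doublets kept and 0.02 with enzyme genes left in the clustering). Directions also reversed for Por in the epithelial sums (-0.11 without Adj 1) and within cluster 20 for 3 genes that were not called there: Cyp51 (0.21 with library sizes alone, 0.0608 with tumors summed per animal, 0.12 without the 20-week animal, -0.075 to 0.0341 without 1 library), Nr1i2 (-0.0046 without the 20-week animal) and Por (0.0933 with library sizes alone and 0.11 without the 20-week animal). The cause was not tested. With library sizes alone 6974 genes rose and 3084 fell in the epithelial sums, against 5242 and 4656 with TMM. Goblet-like cells summed to 173380 to 900717 UMIs in each of the 7 tumors with at least 20 such cells, which limits what could be detected there.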
